A study of Mus musculus with 7 samples.

Results

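Oxidative phosphorylation was described across mouse gliomas through 110 of 17422 listed genes, chosen by gene symbol. Members had symbols starting with Ndufa, Ndufb, Ndufc, Ndufs or Ndufv, Sdha to Sdhd, Uqcr, Cox4 to Cox8, Atp5, mt-Nd, mt-Co, mt-Cytb or mt-Atp. They comprised 78 nuclear-encoded structural subunits, 13 mitochondrially encoded subunits, 13 assembly or other factors whose symbols share these letters, and 6 processed pseudogenes. The symbol rule uses no measured value, but it was set with earlier results of these data known. The 4 genes given as markers of the group, mt-Co1, mt-Nd1, Cox5a and Ndufa4, were detected in every library.

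Respiratory complexes I to IV pass electrons from NADH and succinate to oxygen, complexes I, III and IV pump protons across the inner mitochondrial membrane, and complex V, the ATP synthase, uses the proton gradient to make ATP. Complex II is encoded wholly in the nucleus, whereas complexes I, III, IV and V combine nuclear-encoded subunits with subunits encoded by the mitochondrial genome. Mitochondrial messages are transcribed inside the organelle as long precursors from both strands and then cut apart, and complexes I, III, IV and V need both genomes to assemble.

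Cells sorted for the red fluorescent protein DsRed were profiled by RNA-seq. The libraries are 3 PDGF-B-labelled gliomas, 3 EGFRvIII-labelled gliomas and 1 culture of PDGF-B-transduced progenitors, all of the Balb/c strain. Both models start from neural precursors of embryonic day 14, kept with EGF and bFGF and given retroviruses that also encode DsRed. In the PDGF-B model wild-type cells received PDGF-B, a growth factor, and in the EGFRvIII model Ink/Arf -/- cells received a truncated, constitutively active EGF receptor, so oncogene and genotype cannot be told apart. After 10 days, 20000 cells were placed intracranially in adult BALB/c hosts, and tumours were taken at the first neurological signs; the wild-type PDGF-B culture was not grafted. The series calls the gliomas of each model independent tumours, and p-values below measure the spread between them. Recovered depth was 32513754 to 39062584 reads per library, and levels are given as CPM, reads relative to the authors' scaled library size.

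The driver genes went against the labels. Egfr stood at 4952, 5109 and 3594 CPM in PDGF-B-labelled gliomas, against 41.2, 26.9 and 25.6 CPM in EGFRvIII-labelled gliomas and 282 CPM in the culture. Pdgfb stood at 1.95, 2.97 and 4.88 CPM in PDGF-B-labelled gliomas, against 386, 284 and 277 CPM in EGFRvIII-labelled gliomas and 245 CPM in the PDGF-B-transduced culture. EGFRvIII-labelled gliomas and the culture differed in Pdgfb by 0.35 ± 0.47 on the log2 scale (SE, limma adjusted p = 0.716). The names PDGF-B and EGFRvIII below are the labels only, and any direction between the glioma groups is relative to them. Cdkn2a, the gene of the Ink/Arf locus, stood at 3.52, 2.94 and 4.99 CPM in PDGF-B-labelled gliomas, against 22.7, 26.1 and 11.1 CPM in EGFRvIII-labelled gliomas and 10.7 CPM in the culture; which exons are deleted is not stated in the labels. Transcripts of microglia and macrophages also differed: all 10 markers of these cells were called lower in PDGF-B-labelled gliomas (2.63% of all genes), where they summed to 365, 528 and 1243 CPM, against 4636, 12537 and 5142 CPM in EGFRvIII-labelled gliomas. Without EGFRvIII replicate 2, 1 of the 10 was called (0.0459% of all genes), with a median log2 difference of -3.0 in place of -3.24. In the culture they summed to 2.34 CPM, with C1qb and Trem2 at 0. In sorted bulk samples, fewer cells of a type and less RNA per cell cannot be told apart.

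Part of the mitochondrial signal was assigned to other genes. Of the 13 mitochondrially encoded subunits, 7 have listed near-identical copies, all unprocessed pseudogenes, each on chromosome 1 with a second on chromosome 2 for mt-Co1 and mt-Co2 (mm10). The first 60 bases of mt-Nd3, a core subunit of complex I, are shown beside those of its copy Gm28438, with the single base that differs over 345 aligned bases in capitals (T3C, counted from the first base of mt-Nd3, with the mt-Nd3 base first). They lie at chrM:9459-9518, plus strand, and chr1:24613060-24613119, minus strand. For mt-Atp6, which encodes a subunit of the proton channel of ATP synthase, all 678 aligned bases were identical to Gm10925, and the stretch shown reads the same at chrM:8236-8295, plus strand, and at chr1:24614283-24614342, minus strand.
mt-Nd3: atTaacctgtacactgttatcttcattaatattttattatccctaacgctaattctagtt
Gm28438: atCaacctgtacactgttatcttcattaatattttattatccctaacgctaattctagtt
mt-Atp6 and Gm10925: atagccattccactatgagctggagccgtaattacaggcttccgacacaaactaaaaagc

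Reads of these genes were divided unevenly between gene and copy. mt-Co3, a core subunit of cytochrome c oxidase, held between 0.407% and 3.63% of the CPM summed over itself and its copy, and mt-Atp6 between 2.59% and 3.71%. The share was 3.78% to 10.6% for mt-Nd3, 10.6% to 12.9% for mt-Nd4l and 14.7% to 34.4% for mt-Co2, whereas mt-Co1 kept 90.4% to 97.1% and mt-Nd4 95.7% to 99.97%. As listed, mt-Co3 stood at 103, 26.2 and 233 CPM in PDGF-B-labelled gliomas, at 107, 497 and 27.2 CPM in EGFRvIII-labelled gliomas and at 73.9 CPM in the culture. Summed with its copy it stood at 5161, 5547 and 7722 CPM in PDGF-B-labelled gliomas, at 6070, 13702 and 6680 CPM in EGFRvIII-labelled gliomas and at 8246 CPM in the culture. EGFRvIII replicate 3 and PDGF-B replicate 2, the lowest as listed, lay among the other gliomas once summed, and EGFRvIII replicate 2 alone stood apart. The remaining 6 genes, mt-Nd1, mt-Nd2, mt-Nd5, mt-Nd6, mt-Cytb and mt-Atp8, had no listed copy.

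**Figure D1:**
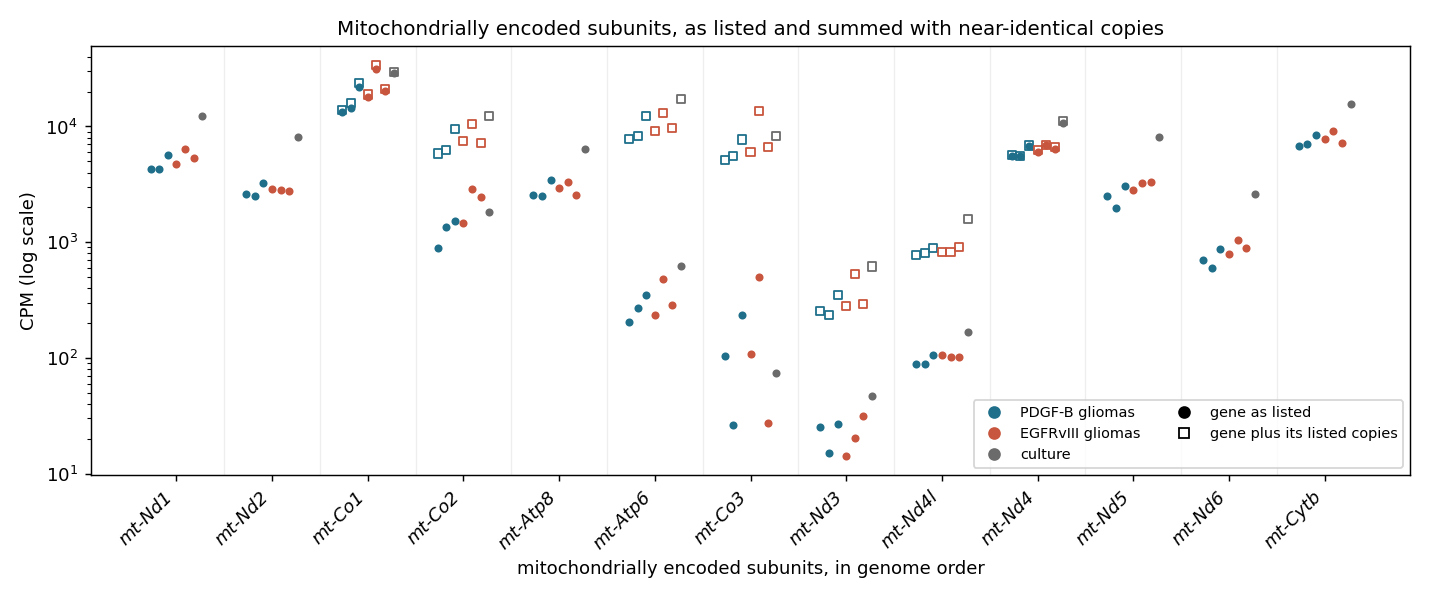
CPM (log scale) of the 13 mitochondrially encoded subunits in genome order, per library, for the gene as listed (filled circles) and summed with its listed near-identical copies (open squares). For mt-Co3, mt-Atp6, mt-Nd3 and mt-Nd4l the listed value is 12.9% of the sum or less in every library. The culture lies above all 6 gliomas for 10 of the 13 genes as listed.

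Nuclear-encoded subunits were affected as well. Of the 78 subunits, 23 shared sequence with a listed processed pseudogene. Ndufb4, an accessory subunit of complex I, held between 8.0% and 13.8% of its sum, the rest lying mostly in Ndufb4c at 27.5 to 73.2 CPM. Atp5g2, one of 3 genes for the same c-ring subunit of ATP synthase, held 2.98% to 4.93%, with nearly all reads in Gm10175. The share of Atp5l was 34.4% to 42.5%. Levels of these genes as listed are therefore uncertain, and 8 members held under 50% of their sum in every library.

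Messages of the mitochondrial genome made up far more of the libraries than those of nuclear-encoded subunits. With their copies, the 13 mitochondrial genes took 6.18%, 6.23% and 9.08% of reads in PDGF-B-labelled gliomas, 7.21%, 9.01% and 7.94% in EGFRvIII-labelled gliomas and 12.9% in the culture. The 78 nuclear-encoded subunits together took 0.445%, 0.453% and 0.499% in PDGF-B-labelled gliomas, 0.522%, 0.788% and 0.483% in EGFRvIII-labelled gliomas and 0.656% in the culture. The culture had the highest mitochondrial sum and EGFRvIII replicate 2 the highest nuclear-encoded one. For genes as listed, the culture was the highest library for 10 of the 13 mitochondrial and 9 of the 78 nuclear-encoded subunits (24.0% of all genes). With copies summed, mt-Co2 was also highest in the culture, at 12315.5 CPM against 10592 CPM in EGFRvIII replicate 2, the highest glioma. Per kilobase of exon, averaged over the 7 libraries, mt-Atp8 stood at 16620 CPM and mt-Co1 at 13694 CPM, while the highest nuclear-encoded subunits as listed were Atp5b, the catalytic beta subunit of ATP synthase, at 341 CPM and Atp5a1, its alpha partner, at 216 CPM. Summed with their copies and divided by the length of the gene itself, mt-Atp6 stood at 16275 CPM and Atp5g2 at 255 CPM per kilobase. Gm10175, which holds nearly all reads of the Atp5g2 sum, is longer than Atp5g2, so the rank of Atp5g2 beside Atp5b and Atp5a1 is uncertain. As listed, the highest of complexes I to IV were Ndufa4 at 195 CPM, Sdhb at 57.9 CPM, Uqcrb at 186 CPM and Cox6a1 at 199 CPM per kilobase. Ndufa4 keeps its complex I symbol although its protein is now placed with complex IV.

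PDGF-B-labelled gliomas were compared with EGFRvIII-labelled gliomas, the 2 models of the series. None of the 110 members was called at an adjusted p of 0.05 (limma with Benjamini-Hochberg adjustment over all genes), whereas 3.35% of all listed genes were called. Unadjusted p was under 0.05 for 5 members, among them Cox6a2, mt-Co2 and Sdhc, against 16.7% of all genes, and voom on the recovered reads called 0, with 4 members under 0.05. For mt-Co2 this holds only as listed, with a log2 difference of -0.83 ± 0.34 (SE, limma adjusted p = 0.283). With its copies summed the difference was -0.24 ± 0.31 (SE, limma adjusted p = 0.707). The median log2 difference was -0.40 for nuclear-encoded subunits and -0.22 for mitochondrially encoded ones, beside -0.00 over all genes tested. It lay below 0 for 76 of 78 nuclear-encoded and 12 of 13 mitochondrially encoded subunits (50% of all genes). By complex, the medians of the nuclear-encoded subunits were -0.36 for I, -0.42 for II, -0.47 for III, -0.45 for IV and -0.48 for V. The 2 groups did not overlap for 15 of the 78 nuclear-encoded subunits and for none of the 13 mitochondrial ones, while 22.9% of all genes did not overlap.

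**Figure D2:**
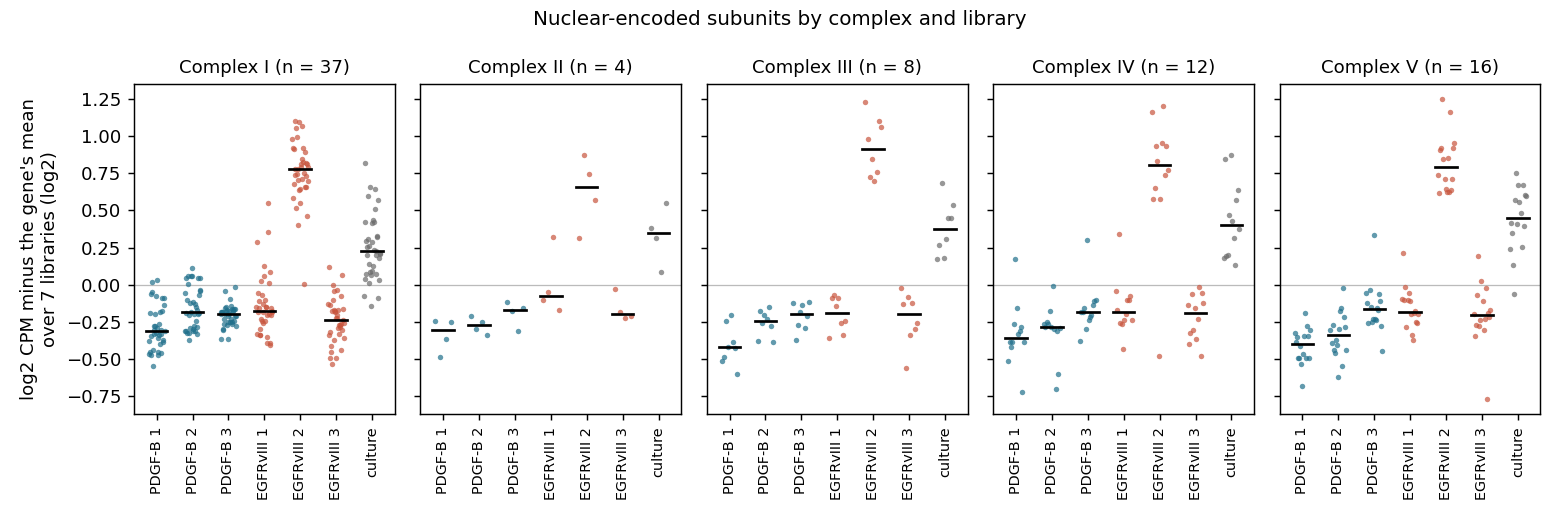
Log2 CPM of each nuclear-encoded subunit minus its mean over the 7 libraries, by complex and library; points are genes and bars are medians. Cox6a2, at under 3 CPM in every library, is left out of complex IV. EGFRvIII replicate 2 stands above the other gliomas in all 5 complexes, followed by the culture.

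For nuclear-encoded subunits most of this difference rested on 1 glioma. EGFRvIII replicate 2 had the highest CPM of the 6 gliomas for 76 of the 78 nuclear-encoded subunits (32.0% of all genes) and the highest of all 7 libraries for 68 (25.2% of all genes). The median subunit stood at 2.00-fold the level of the other 5 gliomas, and 74 subunits stood at 1.5-fold or more. These are ratios of CPM, and the scaling factor of the library size was 0.856 in this library, against 1.015 to 1.064 in the other 5 gliomas. A lower factor raises CPM relative to the share of reads. Cox4i1, the regulatory subunit that links cytochrome c oxidase to ATP sensing, stood at 77.0, 91.6 and 84.8 CPM in PDGF-B-labelled gliomas and at 107, 247 and 100 CPM in EGFRvIII-labelled gliomas. Atp5a1 stood at 414, 420 and 499 CPM in PDGF-B-labelled gliomas and at 484, 862 and 451 CPM in EGFRvIII-labelled gliomas. In both genes the second EGFRvIII library stood far above the rest. For Atp5a1 the remaining 5 gliomas overlapped between the groups. For Cox4i1 EGFRvIII replicates 1 and 3 also stood above all PDGF-B-labelled gliomas. Its log2 difference between the groups was -0.30 or lower whichever single glioma was left out. The 2 exceptions were Ndufs1 and Cox6b2. Ndufs1, the large iron-sulphur subunit of complex I, was highest in EGFRvIII replicate 1. Cox6b2 is the testis-enriched variant of Cox6b1. Cox6b2 stood at 2.53, 1.85 and 2.77 CPM in PDGF-B-labelled gliomas and at 1.66, 1.61 and 2.02 CPM in EGFRvIII-labelled gliomas.

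Without EGFRvIII replicate 2 the median log2 difference between the glioma groups was -0.08 for nuclear-encoded and -0.06 for mitochondrially encoded subunits, and again no member was called, against 0.0861% of all genes. The mitochondrial median shrank about as much without PDGF-B replicate 1 or 2, to -0.09 and -0.08. The level of EGFRvIII replicate 2 relative to the other 5 gliomas differed between lists of mitochondrial genes, taken as listed. Against the other 5 gliomas, its median was 1.22-fold for mitochondrially encoded subunits, 1.73-fold for the 78 mitochondrial ribosomal proteins, 1.49-fold for the 17 genes of the tricarboxylic acid cycle, 1.43-fold for 38 assembly factors, 1.04-fold for 21 genes of mitochondrial DNA upkeep and transcription and 0.87-fold for 13 regulators of mitochondrial biogenesis. Outside the organelle it was 3.06-fold for the 86 cytosolic ribosomal proteins, 1.99-fold for 26 genes of glycolysis and the hypoxia response, and 8.11-fold for the 10 microglia and macrophage markers. The other 5 gliomas include the PDGF-B-labelled ones, so these ratios also hold any difference between the groups. The lists also differ in median exonic length, and levels in this library moved with length, as described below. That length was 784 bases for mitochondrially encoded subunits, 1251.5 for mitochondrial ribosomal proteins, 2544 for the tricarboxylic acid cycle and 2613 for the regulators. These ratios are not corrected for it. Microglia and macrophage markers summed to 12537 CPM in EGFRvIII replicate 2, against 4636 and 5142 CPM in EGFRvIII replicates 1 and 3. For glycolysis and hypoxia, median log2 deviations from each gene's mean were 0.79 in EGFRvIII replicate 2, and 0.16 and 0.20 in replicates 1 and 3. Markers of red blood cells summed to 89.2 CPM in EGFRvIII replicate 2 and to 10.3 CPM or less in the other 6 libraries.

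Transcript length moved with the same library. Among genes other than members, EGFRvIII replicate 2 stood at 1.21-fold the other 5 gliomas for exonic lengths up to 500 bases, 1.40-fold for those above 500 and up to 1000 bases, and 0.678-fold beyond 8000 bases. Nuclear-encoded subunits have a median exonic length of 723 bases, against 2540 bases over all genes. In each length class they stood higher than other genes. They stood at 2.19-fold up to 500 bases (n = 13), against 1.21-fold for other genes, and at 2.05-fold above that and up to 1000 bases (n = 39), against 1.40-fold. Up to 2000 bases they stood at 1.99-fold (n = 21), against 1.28-fold, and up to 4000 bases at 1.72-fold (n = 5), against 1.01-fold. Mitochondrially encoded subunits as listed, with a median length of 784 bases, stood at 1.22-fold. That is below the 1.40-fold of other genes above 500 and up to 1000 bases. After the length trend of each library was removed, the median difference between PDGF-B-labelled and EGFRvIII-labelled gliomas was -0.21 for nuclear-encoded and -0.00 for mitochondrially encoded subunits, beside 0.08 over all genes. The part of microglial or blood RNA in the level of this library was not tested.

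**Figure D3:**
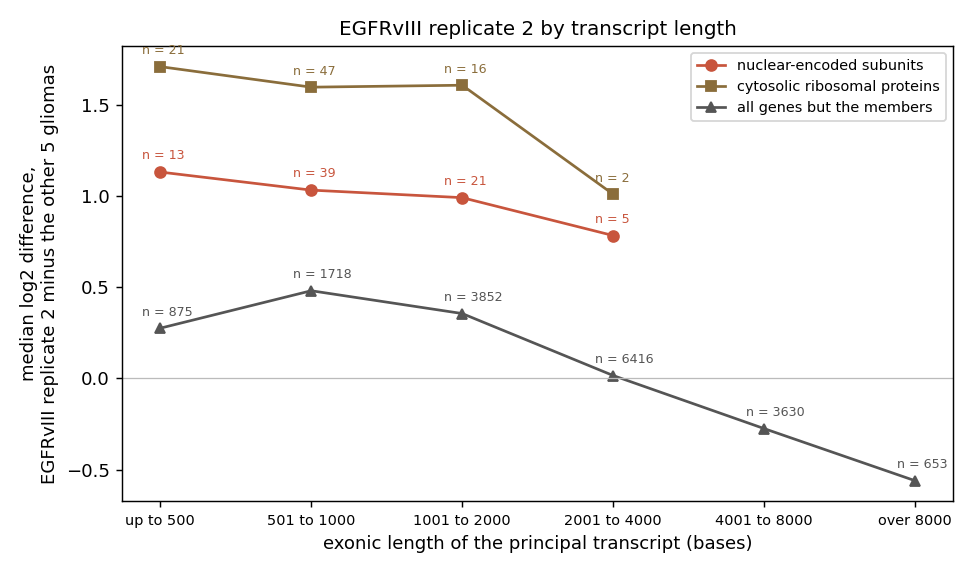
Median log2 difference of EGFRvIII replicate 2 minus the other 5 gliomas by exonic transcript length, for nuclear-encoded subunits, cytosolic ribosomal proteins and all genes but the members; n is the number of genes. The subunits lie above genes of the same length in each of the 4 bins they occupy.

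EGFRvIII replicate 1 differed in another way, by chromosome. Among its nuclear-encoded subunits with the highest ratio to the 4 gliomas other than EGFRvIII replicate 2 were Ndufs1 at 1.68-fold, Cox5b at 1.55-fold, Ndufa10 at 1.53-fold and Sdhc at 1.52-fold, all on chromosome 1, and Atp5b on chromosome 10 at 1.44-fold. Ndufs1 stood at 88.3, 90.3 and 89.6 CPM in PDGF-B-labelled gliomas, at 147, 101 and 82.3 CPM in EGFRvIII-labelled gliomas and at 118 CPM in the culture. Sdhc, a membrane anchor of succinate dehydrogenase, stood at 65.8, 71.3 and 68.2 CPM in PDGF-B-labelled gliomas, at 106, 142 and 72.7 CPM in EGFRvIII-labelled gliomas and at 89.8 CPM in the culture. All 11 subunits on chromosomes 1 and 10 were highest in this library among the 5 gliomas, with a median of 1.44-fold, whereas this held for 16 of the 67 on other chromosomes, with a median of 1.04-fold, and for 20.3% of all genes. Other genes of these chromosomes were higher too: those with a mean of at least 5 CPM had a median log2 difference of 0.47 on chromosome 1 (n = 725, 90.6% of them higher) and 0.31 on chromosome 10 (n = 583, 83.4% higher), against -0.06 to 0.03 on the 18 other chromosomes. Chromosome medians spanned 0.53 in this library and 0.19 to 0.23 in the other 5 gliomas. DNA copy number was not measured here, and its part was not tested. Sdhc on chromosome 1 and Ndufs7 on chromosome 10 were among the members with an unadjusted p under 0.05 between the glioma groups. This comparison by chromosome was chosen after the values had been seen.

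**Figure D4:**
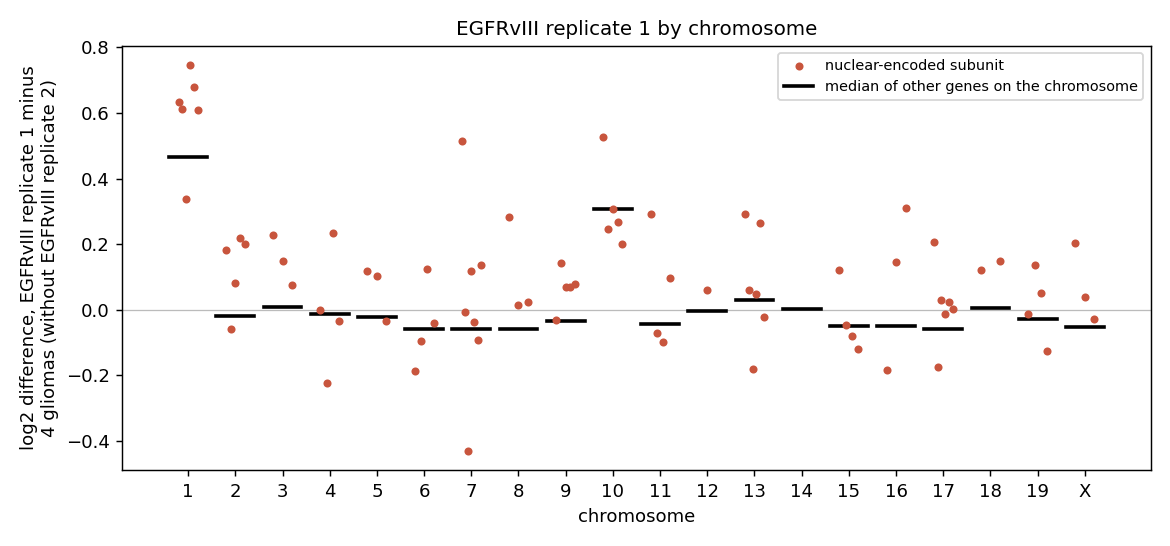
Log2 difference of EGFRvIII replicate 1 minus the mean of the 4 gliomas other than EGFRvIII replicate 2, by chromosome; points are nuclear-encoded subunits and bars the median of other genes. Both the 6 subunits on chromosome 1 and the 5 on chromosome 10 lie above 0, as do the chromosome medians of 0.47 and 0.31.

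Both glioma groups were then set against the culture. These comparisons share 1 culture library, which has no replicate and was assumed to vary like the gliomas, so they do not support each other. Against the culture, 3 members fell in PDGF-B-labelled gliomas and 2 in EGFRvIII-labelled gliomas, all of them mitochondrially encoded subunits of complex I, the entry point for electrons from NADH. Over all genes, 9.45% were called in PDGF-B-labelled gliomas (1.73% lower) and 9.55% in EGFRvIII-labelled gliomas (1.34% lower). The called members are 2.73% and 1.82% of all members, so as counts they are near the shares of all genes called lower. Voom called mt-Nd2 and mt-Nd6 in PDGF-B-labelled gliomas and mt-Nd2 alone in EGFRvIII-labelled gliomas.

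mt-Nd2, a proton-pumping membrane subunit, stood at 2588, 2516 and 3216 CPM in PDGF-B-labelled gliomas, at 2868, 2807 and 2758 CPM in EGFRvIII-labelled gliomas and at 8183 CPM in the culture. The 6 gliomas lay within a narrow band far below the culture. The log2 difference was -1.57 ± 0.31 (SE) in PDGF-B-labelled gliomas and -1.54 ± 0.31 in EGFRvIII-labelled gliomas, with limma adjusted p of 0.0235 and 0.0227.

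mt-Nd6, the one subunit encoded on the opposite strand of the mitochondrial genome, stood at 705, 599 and 865 CPM in PDGF-B-labelled gliomas, at 782, 1053 and 896 CPM in EGFRvIII-labelled gliomas and at 2621 CPM in the culture. All 6 gliomas lay far below the culture. The log2 difference was -1.87 ± 0.33 (SE, limma adjusted p = 0.0147) in PDGF-B-labelled gliomas and -1.54 ± 0.33 (limma adjusted p = 0.0276) in EGFRvIII-labelled gliomas. mt-Nd6 overlaps mt-Nd5 by 14 bases, and no source used here says whether counting used strand, so its reads cannot be told apart from antisense RNA of the same stretch.

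mt-Nd5, another proton-pumping subunit, stood at 2483, 1962 and 3050 CPM in PDGF-B-labelled gliomas, at 2814, 3249 and 3299 CPM in EGFRvIII-labelled gliomas and at 8039 CPM in the culture. It fell in PDGF-B-labelled gliomas, by 1.71 ± 0.35 on the log2 scale (SE, limma adjusted p = 0.0270). In EGFRvIII-labelled gliomas its difference was -1.37 ± 0.35, with a limma adjusted p of 0.0549.

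The remaining mitochondrial genes did not pass the test. mt-Nd1 differed by -1.40 in PDGF-B-labelled gliomas and -1.18 in EGFRvIII-labelled gliomas, mt-Atp8 by -1.19 and -1.13, and mt-Cytb, the mitochondrial subunit of complex III, by -1.08 and -0.97, in the same order of groups. With copies summed, all 13 genes lay below the culture on average in both groups, with medians of -1.08 in PDGF-B-labelled gliomas and -0.89 in EGFRvIII-labelled gliomas, and the same 3 and 2 genes were called. By complex, the 7 summed complex I genes had medians of -1.40 and -1.18, whereas the 3 complex IV genes had -0.78 and -0.32. mt-Co1 with its copies stood at 13960, 15842 and 23547 CPM in PDGF-B-labelled gliomas, at 18913, 33695 and 21151 CPM in EGFRvIII-labelled gliomas and at 29796 CPM in the culture, so EGFRvIII replicate 2 stood above the culture. The difference between complexes was not tested.

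**Figure D5:**
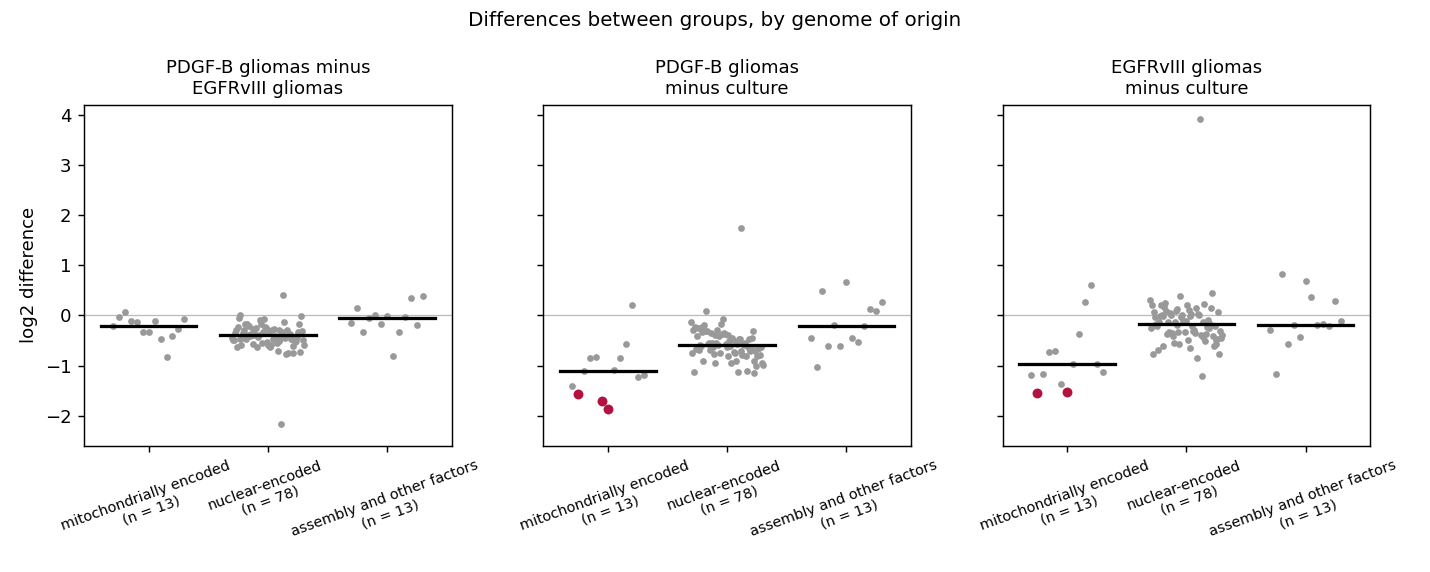
Log2 differences of mitochondrially encoded subunits, nuclear-encoded subunits and assembly or other factors in the 3 comparisons; points are genes as listed, bars are medians, and large red points passed an adjusted p of 0.05. The called points are mt-Nd2, mt-Nd5 and mt-Nd6 in PDGF-B-labelled gliomas against culture, and mt-Nd2 and mt-Nd6 in EGFRvIII-labelled gliomas; the highest point is Cox6a2.

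None of the 78 nuclear-encoded subunits was called against the culture in either group, although the unadjusted p was under 0.05 for 7 in PDGF-B-labelled gliomas (27.2% of all genes) and for 2 in EGFRvIII-labelled gliomas (23.9% of all genes), and voom called none. Their median log2 difference was -0.59 in PDGF-B-labelled gliomas and -0.18 in EGFRvIII-labelled gliomas, beside 0.04 and 0.01 over all genes. It lay below 0 for 76 of them in PDGF-B-labelled gliomas (48.4% of all genes) and for 53 in EGFRvIII-labelled gliomas (49.3% of all genes). For genes as listed, the culture stood above all 3 PDGF-B-labelled gliomas for 75 of 78 nuclear-encoded subunits and 12 of 13 mitochondrial ones (38.0% of all genes). It stood above the 5 gliomas other than EGFRvIII replicate 2 for 66 nuclear-encoded subunits (32.4% of all genes), while EGFRvIII replicate 2 stood above the culture for 68 (52.5% of all genes). Cox5a, a nuclear-encoded subunit of cytochrome c oxidase, stood at 33.7, 36.0 and 38.8 CPM in PDGF-B-labelled gliomas, at 39.0, 65.5 and 33.3 CPM in EGFRvIII-labelled gliomas and at 79.1 CPM in the culture.

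The calls against the culture turned on single libraries, and all groups share one estimate of the spread. Without EGFRvIII replicate 2, 21 members were called in PDGF-B-labelled gliomas, 15 of them nuclear-encoded subunits, and 12 in EGFRvIII-labelled gliomas, 9 of them nuclear-encoded; all were lower than in the culture, against 3.75% and 1.83% of all genes called lower. They included Cox5a, Cox6b1, Atp5g3, Atp5h, Atp5j, Atp5o and Ndufc2 in both groups. With the length trend removed and all libraries kept, 9 members were called lower in PDGF-B-labelled gliomas (5.56% of all genes) and 8 in EGFRvIII-labelled gliomas (5.83%). That removal also moved the median of all genes to -0.22 in PDGF-B-labelled gliomas and -0.32 in EGFRvIII-labelled gliomas, in place of 0.04 and 0.01. With both changes, chosen together after the data were seen, 40 (11.9%) and 41 (11%) were called lower. Without PDGF-B replicate 1, no member was called in either group. Without PDGF-B replicate 2 or EGFRvIII replicate 3, mt-Nd6 alone was called in PDGF-B-labelled gliomas. Without EGFRvIII replicate 1 or 3, no member was called in EGFRvIII-labelled gliomas, and without PDGF-B replicate 3 there were 4, among them Cox6a2, which was higher than in the culture.

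Among subunits that exist in tissue variants, the widely expressed forms stood far above the others. Per kilobase of exon, Cox6a1 averaged 199 CPM over the 7 libraries, against 1.16 CPM for Cox6a2, the heart and skeletal muscle form, and Cox6b1 averaged 185 CPM, against 5.09 CPM for Cox6b2. Cox6a2 had the largest difference of any member between the glioma groups, at 0.117, 0.152 and 0.616 CPM in PDGF-B-labelled gliomas, 0.545, 2.84 and 1.23 CPM in EGFRvIII-labelled gliomas and 0.0289 CPM in the culture. The log2 difference of -2.17 ± 0.77 between the glioma groups did not pass (SE, limma adjusted p = 0.213), and the culture's value rests on 1 read. Of the 3 genes for the c-ring subunit, Atp5g3 averaged 104 CPM per kilobase, Atp5g1 49.0 CPM and Atp5g2 10.1 CPM as listed. This order does not hold with copies summed, at 255 CPM per kilobase of the gene itself for Atp5g2 and 76.6 CPM for Atp5g1, while Atp5g3 has no listed copy. The pseudogene Ndufab1-ps, at 1.67 CPM or less in every library and listed at 0 in PDGF-B replicate 2, and Uqcrh-ps1, at 1.35 CPM or less, also had large differences, of -1.19 ± 1.05 and -0.88 ± 0.82 between the glioma groups (SE, limma adjusted p = 0.594 and 0.612).

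Genes that serve the same pathway gave few calls. Between the glioma groups, none of the 38 assembly factors, 12 genes of cytochrome c and coenzyme Q synthesis, 21 of mitochondrial DNA upkeep, 13 regulators, 17 of the tricarboxylic acid cycle, 26 of glycolysis and hypoxia, 78 of the mitochondrial ribosome and 86 of the cytosolic ribosome was called, against 3.35% of all genes. Unadjusted p was under 0.05 for 27 of the 86 cytosolic ribosomal genes and 9 of the 26 of glycolysis and hypoxia, against 16.7% of all genes. All 86 cytosolic ribosomal genes lay below 0, with a median log2 difference of -0.86 (-0.43 without EGFRvIII replicate 2), and 21 of the 26 glycolysis and hypoxia genes did, with a median of -0.74 (-0.45 without it). Against the culture, calls came from coenzyme Q synthesis (1 higher in each group), glycolysis and hypoxia (2 higher in each group, Slc2a3 and Adm) and the tricarboxylic acid cycle (1 lower in PDGF-B-labelled gliomas), and from none of the other 5 lists. Over all genes, 7.73% were called higher in PDGF-B-labelled gliomas and 8.20% in EGFRvIII-labelled gliomas, so the counts called higher are near the background. Coq8a, a kinase-like protein needed for coenzyme Q synthesis, stood at 11.4, 10.4 and 6.38 CPM in PDGF-B-labelled gliomas, at 7.93, 8.86 and 9.85 CPM in EGFRvIII-labelled gliomas and at 1.03 CPM in the culture. It rose against the culture by 3.07 ± 0.44 and 3.03 ± 0.44 on the log2 scale in the 2 groups (SE, limma adjusted p = 0.00749 and 0.00605). Slc2a3, a neuronal glucose transporter, rose by 1.21 ± 0.25 in both (limma adjusted p = 0.0269 and 0.0245). Idh2, the mitochondrial isocitrate dehydrogenase, stood at 32.0, 40.4 and 39.2 CPM in PDGF-B-labelled gliomas, against 84.1 CPM in the culture, and fell by 1.18 ± 0.26 (SE, limma adjusted p = 0.0343); all 17 genes of its cycle lay below the culture on average in that group. Beside these differences, the culture also held more RNA of neural progenitor markers. Of these, 3 of 5 were called lower in each glioma group, against 1.73% and 1.34% of all genes. They summed to 946, 731 and 2234 CPM in PDGF-B-labelled gliomas and 1561, 2390 and 1526 in EGFRvIII-labelled gliomas, against 7580 CPM in the culture. Oligodendrocyte precursor markers were called higher for 3 of 5 in PDGF-B-labelled gliomas and 2 of 5 in EGFRvIII-labelled gliomas, with median log2 differences of 2.96 and 2.04. They summed to 8009, 10159 and 5179 CPM in PDGF-B-labelled gliomas and 4392, 4769 and 4783 CPM in EGFRvIII-labelled gliomas, against 1835 CPM in the culture. Myelinating oligodendrocyte markers were called higher for 4 of 5 and 2 of 5, and all 10 microglia and macrophage markers in both groups. In the same order, endothelial markers were called higher for 1 of 5 and 3 of 5, and neuron markers for 2 of 7 and 0 of 7. These 2 lists did not rise as a whole: 1 of the 5 endothelial and 3 of the 7 neuron markers lay below the culture in each group, none of them called. Of 8 pericyte and mural markers, 3 and 2 were called higher, and 1 and 0 lower. All 5 astrocyte markers lay below the culture on average in both groups, with medians of -3.45 and -2.35, and none was called. The part of cell state in the differences from the culture was not tested.

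Nuclear-encoded subunits were also read for promoter letters. RefSeq (GRCm38.p6) gave 250 bases before the start for 65 of the 78. The core bound by the transcription factor NRF1 (GCGCA, any base, then GCGC), searched on both strands, was in 13 of the 65 (20%), against 8.73% of the 10978 genes with such a window. All of the 13 but Ndufa11 are genes of the minus strand. Whether windows of plus-strand genes were placed correctly was not checked, so these shares are uncertain. One window per complex with a match is shown, with the match in capitals: Ndufs5 at chr4:123718255-123718304, Sdha at chr13:74350309-74350358, Cox6a1 at chr5:115349046-115349095 and Atp5c1 at chr2:10080433-10080482, each on the minus strand.
Ndufs5: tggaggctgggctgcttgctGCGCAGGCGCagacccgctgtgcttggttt
Sdha: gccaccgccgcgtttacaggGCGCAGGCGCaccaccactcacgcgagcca
Cox6a1: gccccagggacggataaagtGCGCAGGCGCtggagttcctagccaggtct
Atp5c1: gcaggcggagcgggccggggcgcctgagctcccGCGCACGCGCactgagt

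In EGFRvIII replicate 2 the 13 subunits with the letters stood at a median of 1.85-fold over the other 5 gliomas, and the 52 without them at 2.00-fold. The letters AAGATGGCG, CCGGAAGTG and TCAAGGTCA, cores of YY1, of ETS factors such as GABPA and of the ERR nuclear receptors, were each in 1 of the 65 promoters (1.54%), against 1.25%, 3.14% and 0.310% of all promoters. The genes with these matches, Atp5j, Uqcrh and Atp5g3 in the same order, are also all on the minus strand. These shares and the split by NRF1 letters therefore carry the same uncertainty. A match is a description of the sequence only.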

How the data were processed

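RNA-seq of 7 libraries was analysed. The deposited values are log2 CPM per gene, per the file headers (for EGFRvIII replicate 3 no unit is named, but its values share the floor of the others); STAR, edgeR and mm10 are named in the submitters' processing notes. No source used here gives the quantifier, filter or strand setting, and the labels' protocol names both poly(A) selection and rRNA removal. All values carry a prior of 2 reads. Values with few reads were multiples of 0.01 read (tolerance 0.001), so estimated counts with fractions were recovered; CPM printed are these divided by the authors' effective library sizes, without the prior. Totals were 32513754 to 39062584 reads; they limit precision through counting error only.

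Symbols, lengths and coordinates came from GENCODE M21 (GRCm38); 17254 of 17422 IDs matched. The deposited log2 values were tested over all genes with limma 3.58.1 (R 4.3.3; trend, robust), adjusted by Benjamini-Hochberg; the gliomas alone for one comparison, all 7 libraries in 3 groups for those with the culture. Differences are of mean log2 values and understate low genes. Medians over lists carry no test. Copies were listed genes sharing at least 20% of their 31-mers with a member. The fit was tested on simulated data.

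Members, lists and tests were chosen with earlier results of these data known. Genes were named by a fixed rule: the 13 mitochondrial genes, the 2 highest per length in each complex, tissue variants, called members, those of largest difference and the leading called gene of each list. Other members were named after their values were seen. Rps6k kinases, matched by letters, were dropped from the cytosolic ribosome list. Alternatives were other priors and scalings, a CPM minimum, voom, removal of the length trend, the replicate number as a block, an adjusted p of 0.01, summing of copies and omission of single gliomas. The view by chromosome was added after the values were seen. Cox4i2, Cox7a1, Cox8b and Ndufa4l2 were not analysed here. Values of 1 further member are not reported here singly.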

Additional observations from a re-analysis of the deposited data

How the results depend on the processing

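Other priors, a minimum of 1 CPM in 3 libraries, median-of-ratios scaling and summing of copies moved none of the counts of called members or the medians by more than 1.5 times or 1 SD between replicates. Replicate numbers did not pair the gliomas: deviations of same-numbered libraries correlated at 0.17, -0.04 and -0.08, and not every glioma correlated best with its own number. With a replicate block, 0 members were called between the glioma groups, and over all genes 18 in place of 583.

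Between the glioma groups the count was 0 under every alternative run. Leaving out 1 glioma called only 4 to 21 of all 17422 genes, except for 1282 without PDGF-B replicate 3. With so few calls over all genes, a count of 0 members says little in those fits or with the replicate block. Leaving out 1 glioma at a time gave medians of -0.58 to -0.08 for nuclear-encoded and -0.35 to -0.06 for mitochondrially encoded subunits. On library totals the medians were -0.31 for nuclear-encoded and -0.12 for mitochondrially encoded subunits, beside 0.09 over all genes. Removing the length trend gave -0.0042 for the mitochondrial ones. With EGFRvIII replicate 2 also left out, a choice made after seeing the data, the medians were 0.050 for nuclear-encoded and 0.071 for mitochondrially encoded subunits, both below the 0.11 over all genes.

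For PDGF-B-labelled gliomas against the culture, 9 members were called with the length trend removed and 40 with EGFRvIII replicate 2 also left out. There were 2 with voom, 0 at an adjusted p of 0.01, and 0 to 21 leaving out 1 glioma. Their nuclear-encoded median was -0.47 on library totals, which moved the median of all genes to 0.15 in place of 0.04, and -0.71 with the length trend removed, with or without EGFRvIII replicate 2, which moved all genes to -0.22, and -0.62 to -0.55 leaving out 1 glioma; the mitochondrial one was then -1.26 to -1.04.

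For EGFRvIII-labelled gliomas against the culture, 8 members were called with the length trend removed, 41 with EGFRvIII replicate 2 also left out, 1 with voom, 0 at an adjusted p of 0.01, and 0 to 12 leaving out 1 glioma. Their mitochondrial median was -1.26 with the length trend removed and -1.19 with EGFRvIII replicate 2 also left out; the nuclear-encoded one was -0.52 and -0.77, beside -0.32 and -0.33 over all genes in place of 0.01. Leaving out 1 glioma gave -1.16 to -0.89 and, for nuclear-encoded subunits, -0.48 to 0.05.

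Of 1549 values of 34 named members under the alternatives, none reversed a called direction. Few members were called, so most of these values could not do so. Signs did change where nothing was called. Between the glioma groups, mt-Co3 as listed went from -0.40 to 0.67 without EGFRvIII replicate 2, and mt-Nd3 from 0.07 to -0.36 with copies summed. With 1 culture library, 3 gliomas a group and reads shared with copies, small differences cannot be detected, and levels of genes with near-identical copies hold only as sums.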
